A study of Homo sapiens with 12 samples.

Results

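The 50 genes described here encode factors of ribosome biogenesis, and they were taken by symbol from the 46931 entries of the expression table, keeping entries on assembled chromosomes. Their RNA was sequenced in 12 libraries of MCF10A, an immortalised human mammary epithelial line labelled wild type. The groups of 3 libraries each are siYT_XMU (11 nM siRNA sets against YAP and TAZ, then 5 µM XMU-MP1), siYT_DMSO (the same siRNA, then DMSO), siC_XMU (22 nM control siRNA, then 5 µM XMU-MP1) and siC_DMSO (control siRNA, then DMSO). All cells stood for 48 h after transfection and then for 6 h with XMU-MP1 or DMSO, in a medium with horse serum, insulin, hydrocortisone and epidermal growth factor. YAP and its paralogue TAZ, the product of WWTR1, are transcriptional coactivators at the end of the Hippo pathway, and XMU-MP1 inhibits the MST1 and MST2 kinases at its head. The design therefore asks how the genes change when siRNA lowers YAP and TAZ, called the knockdown here, how they change with XMU-MP1, and whether the XMU-MP1 change differs between the siRNA arms. All results come from this 1 line, and nothing in the labels says that letters a, b and c are separate cultures, so every p-value rests on a spread between samples that may be technical.

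Ribosomes are built in the nucleolus. RNA polymerase I transcribes the precursor of the large ribosomal RNAs, box C/D and box H/ACA small nucleolar ribonucleoproteins (snoRNPs) methylate its riboses and convert uridines to pseudouridine, and the small-subunit (SSU) processome and a series of large-subunit particles fold and cut it as the ribosomal proteins join. MYC, a basic helix-loop-helix transcription factor, is known as an activator of many genes of this pathway, often through E-boxes near their start sites. The 50 genes were sorted into 7 roles, with 3 box C/D proteins, 4 box H/ACA proteins, 3 RNA polymerase I subunits, 12 SSU processome factors, 6 factors of 40S maturation, 15 factors of 60S assembly and 7 abundant nucleolar proteins. The last name is a label, which the levels of its 7 members do not all bear out.

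Promoter letters were read first, because the E-box is a feature that the choice of genes by name did not use. RefSeq promoter windows (build GRCh38.p14, 250 bases before to 50 bases after each transcript start) were given for 42 of the 50 genes. The E-box core, CACGTG, which reads the same on both strands, stood in the windows of 20 of these 42 genes, or 47.6%, against 11.8% of the 12513 tested genes with a window, 8.77% of the 27305 genes with a window and 6.35% of 63 ribosomal protein genes. Among 105 other genes of the pathway, from the 4 lists described at the end, it stood in 28.6%, with 41.2% of small-subunit and 33.3% of large-subunit factors, so it is no feature of the 50 genes alone. Of its 22 copies in the windows, 13 began between the first and the 36th transcribed base, and 19 began between 64 bases before the start and 36 bases after it. These bounds were taken from the positions themselves, and positions in other genes were not counted. The TEAD core, GGAATG and its reverse complement, counted apart from the E-box so that a window may hold both, stood in 11 of the 42 genes, or 26.2%, against 15.2% of tested genes. It stood in 6.67% of the 105 other pathway genes, with 0 of 34 small-subunit factors, and in 7.94% of the 63 ribosomal protein genes. A match describes the letters of the window and no more. The stretches below run from 40 bases before to 30 bases after the start, 5′ to 3′ on the gene's strand, with the E-box core in capitals. They show 8 of the genes with a core in this stretch, from 5 of the 7 roles, and then NCL and NPM1, the most abundant members, whose windows hold no core. The 8 were picked without a set rule, and all had an adjusted p under 0.05 with the knockdown in DMSO in the test given below. Others with a core in this stretch were not printed, among them NOP10 and UTP4, which did not pass that test. GNL3, DDX21 and NPM1 have 2 windows each. For GNL3 and DDX21 the 1 with the core is shown, and for NPM1, where neither holds a core, the upstream 1.
FBL: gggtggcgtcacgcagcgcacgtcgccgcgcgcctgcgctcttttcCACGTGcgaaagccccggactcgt
UTP20: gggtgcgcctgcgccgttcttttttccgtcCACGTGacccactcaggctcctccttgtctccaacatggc
WDR43: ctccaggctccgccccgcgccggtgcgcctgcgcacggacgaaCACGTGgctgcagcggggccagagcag
PNO1: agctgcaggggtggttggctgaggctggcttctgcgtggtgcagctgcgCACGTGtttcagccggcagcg
MRTO4: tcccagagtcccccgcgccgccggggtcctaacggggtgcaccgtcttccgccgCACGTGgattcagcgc
NOC3L: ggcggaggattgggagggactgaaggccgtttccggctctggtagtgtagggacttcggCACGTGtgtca
GNL3: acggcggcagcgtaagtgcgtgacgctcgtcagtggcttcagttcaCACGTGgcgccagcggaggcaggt
DDX21: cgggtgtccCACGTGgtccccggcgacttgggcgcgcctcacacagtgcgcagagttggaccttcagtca
NCL: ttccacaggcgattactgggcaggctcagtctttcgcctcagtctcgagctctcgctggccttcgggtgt
NPM1: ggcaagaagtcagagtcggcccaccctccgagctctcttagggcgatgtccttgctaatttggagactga

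These stretches lie at chr19:39846350-39846419 (minus strand), chr12:101280065-101280134 (plus), chr2:28894627-28894696 (plus), chr2:68157848-68157917 (plus), chr1:19251765-19251834 (plus), chr10:94362910-94362979 (minus), chr3:52685992-52686061 (plus), chr10:68956607-68956676 (plus), chr2:231464455-231464524 (minus) and chr5:171387076-171387145 (plus). In 6 of the 8 printed genes with a core, the E-box begins downstream of the annotated start of the window shown. It begins at base 4 in WDR43, base 7 in FBL and GNL3, base 10 in PNO1, base 15 in MRTO4 and base 20 in NOC3L. In UTP20 it begins 10 bases and in DDX21 31 bases before the start.

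**Figure D1:**
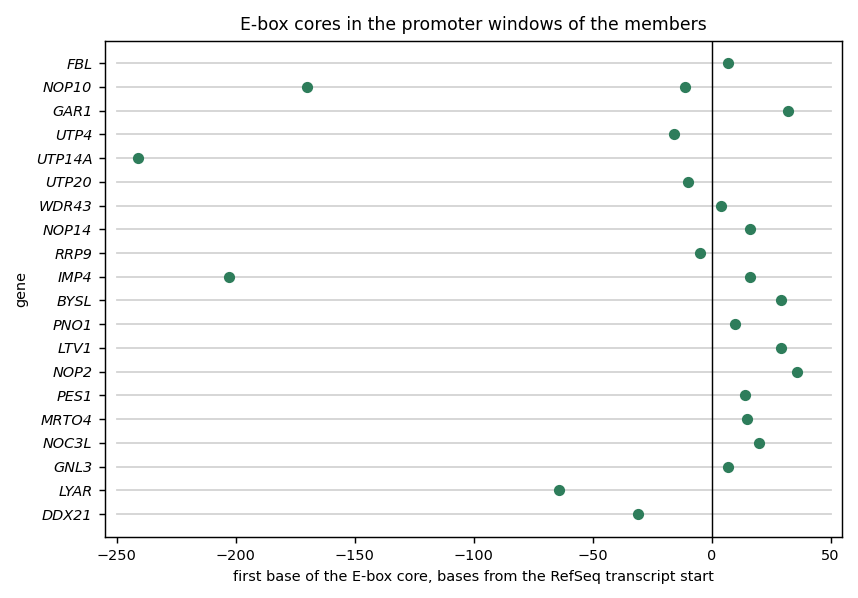
Position of each E-box core in the promoter windows of the 20 members that hold one. The horizontal axis is the distance in bases of the core's first base from the RefSeq transcript start, each grey line is 1 gene's window, and each point is 1 core. Of 22 cores, 19 lie between 64 bases before and 36 bases after the start, bounds taken from these positions.

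Sequencing depth ranged from 8243351 to 67953633 counts per library, and the 50 genes together took between 0.222% and 1.09% of a library's counts. One library, siYT_XMU c, stood apart. It was the shallowest, ribosomal RNA genes took 35.0% of its counts against between 1.02% and 8.35% in the other 11, and SLCO5A1 took 12.6% of them. Several counts of called members and some medians are given with and without it below, while most levels and single fold changes are given with it. The targeted genes were low in the siYT libraries. YAP1 lay between 3.81 and 12.6 CPM (counts scaled to library size, with TMM factors) in siYT libraries and between 132 and 223 CPM in siC libraries, and WWTR1 lay between 0 and 4.47 CPM in siYT libraries and between 24.0 and 60.4 CPM in siC libraries. Of the markers of the labelled cell type, 4 epithelial genes summed to between 1407 and 4561 CPM and 6 basal genes to between 4497 and 14816 CPM in every library, whereas the hormone receptors ESR1 and PGR summed to at most 2.58 CPM. The epithelial sum was lower in siYT than in siC libraries, at 1407 to 2032 CPM in siYT_XMU and 1450 to 1660 CPM in siYT_DMSO against 3297 to 4561 CPM in siC_XMU and 3728 to 4305 CPM in siC_DMSO. Of the other lists, 5 leukocyte genes summed to between 52.7 and 126 CPM in siYT libraries and to between 9.72 and 19.5 CPM in siC libraries, 5 fibroblast genes to at most 105 CPM and 4 endothelial genes to at most 8.49 CPM. The part of these differences in the results was not tested.

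The knockdown of YAP and TAZ gave more calls among these genes than XMU-MP1 did. Of the 50 genes, 37 were lower and 0 higher in siYT_DMSO than in siC_DMSO at an adjusted p under 0.05 (edgeR's quasi-likelihood test, Benjamini-Hochberg over 18143 genes), where 16.0% of all genes tested were called lower and 16.1% higher. The median log2 fold change of the 50 genes was -1.20, against 0.02 over all genes tested. In XMU-MP1 the knockdown lowered 25 of the 50 genes and raised 0, where 18.6% of all genes were called lower and 17.7% higher, with a median log2 fold change of -0.55 against 0.04. On total counts this median was -1.0 and on log2(FPKM + 1) it was -0.98, with 49 and 50 of the 50 fold changes negative, against 42 with TMM. The median of all genes moved down as well, to -0.41 and -0.19. Other settings went the other way, with a median of the 50 genes of -0.45 with RLE scaling, -0.46 by DESeq2 and -0.50 by voom, each with 38 negative. Without siYT_XMU c it was -0.47, with 37 negative. Scaling by total counts also moved the calls over all genes, to 2906 lower and 1909 higher with the knockdown in DMSO (2897 and 2929 with TMM) and to 4800 lower and 1898 higher in siYT_XMU against siC_XMU (3381 and 3219 with TMM). At an unadjusted p under 0.05, 0 members were higher in siYT_DMSO than in siC_DMSO and 1, TBL3, was higher in siYT_XMU than in siC_XMU. DESeq2 and voom called 0 members higher in siYT_DMSO and 1 in siYT_XMU. In bulk RNA fewer cells of a type and less RNA per cell cannot be told apart.

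Summed over the 50 genes, the level was 4466, 4878 and 3797 CPM in siYT_XMU, 3666, 3068 and 3421 CPM in siYT_DMSO, 8763, 7369 and 7428 CPM in siC_XMU and 9330.4, 8083 and 8323 CPM in siC_DMSO. No siYT library reached any siC library in this sum. The mean of siYT_DMSO was 0.395 of that of siC_DMSO, and the mean of siYT_XMU was 0.558 of that of siC_XMU. Gene by gene, every siYT_DMSO library lay below every siC_DMSO library for 44 members, against 27.9% of genes tested, and every siYT_XMU library below every siC_XMU library for 30 members, against 25.9%. The reverse order held for 0 members in either medium, against 26.2% and 19.6% of genes tested.

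**Figure D2:**
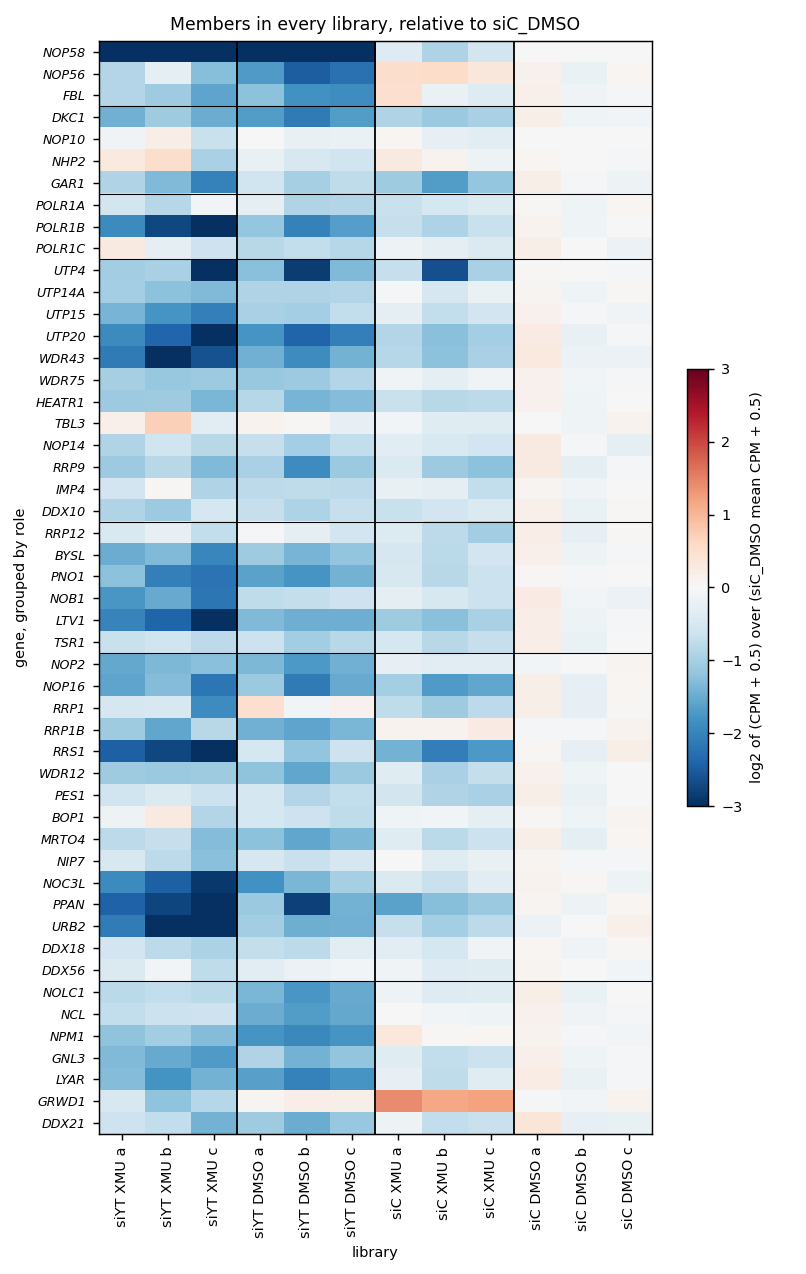
Level of each of the 50 genes (rows, grouped by role) in each of the 12 libraries (columns). Colour is the log2 of the library's CPM + 0.5 over the siC_DMSO mean CPM + 0.5, blue below and red above it, with colours cut at -3 and 3. The 6 siYT columns are blue for most genes, and GRWD1 is red in the 3 siC_XMU columns.

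Among the box C/D proteins, which carry the methylating snoRNPs, all 3 members fell with the knockdown in both media. NOP58, a core protein of these particles (chromosome 2, 202265763 to 202303661, GRCh38.p13), had the largest fall of all 50 genes. It stood at 17.9, 13.3 and 19.6 CPM in siYT_DMSO, against 158, 161 and 156 CPM in siC_DMSO (log2 fold change -3.23 ± 0.24, adjusted p = 3.8e-06), which is 9.36-fold lower. In XMU-MP1 it stood at 13.7, 9.73 and 17.6 CPM in siYT_XMU and 121, 82.6 and 109 CPM in siC_XMU (log2 fold change -2.95 ± 0.24, adjusted p = 7e-06). The siYT libraries all lay under the lowest siC library in both media. Its partner NOP56 had 39.4, 22.8 and 27.1 CPM in siYT_DMSO and 140.5, 112 and 135 CPM in siC_DMSO (log2 fold change -2.12 ± 0.26, adjusted p = 0.0001). In XMU-MP1 NOP56 had 69.9, 107 and 53.0 CPM in siYT_XMU and 185, 190.0 and 162 CPM in siC_XMU (log2 fold change -1.22 ± 0.26, adjusted p = 0.0032). Fibrillarin, the methyltransferase FBL, had 72.8, 48.5 and 47.2 CPM in siYT_DMSO and 190.1, 160.4 and 167 CPM in siC_DMSO (log2 fold change -1.62 ± 0.27, adjusted p = 0.00065). It had 93.5, 82.6 and 57.6 CPM in siYT_XMU and 245, 150.2 and 132 CPM in siC_XMU, where siC_XMU a lay well above the other siC_XMU libraries (log2 fold change -1.17 ± 0.26, adjusted p = 0.0048). None of the 3 genes had overlapping groups in either comparison.

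The box H/ACA proteins, which form the pseudouridylating snoRNPs, did not move as 1 block. Dyskerin, the pseudouridine synthase DKC1 (chromosome X, 154762742 to 154777689), had 36.1, 26.6 and 36.6 CPM in siYT_DMSO and 133, 107 and 112 CPM in siC_DMSO, and was the 1 member of the 4 that edgeR called (log2 fold change -1.83 ± 0.18, adjusted p = 2.3e-05). GAR1, a core protein that DKC1 binds, had 15.5, 11.7 and 13.7 CPM in siYT_DMSO and 26.7, 23.2 and 21.1 CPM in siC_DMSO, with no overlap of libraries (log2 fold change -0.80 ± 0.29, adjusted p = 0.058, not called). The other core proteins NHP2 and NOP10 are, per transcript length, among the highest members. NHP2 had 198, 165 and 153 CPM in siYT_DMSO and 239.8, 235 and 221 CPM in siC_DMSO (log2 fold change -0.43 ± 0.29, adjusted p = 0.30, not called). NOP10 had 96.3, 82.7 and 83.5 CPM in siYT_DMSO and 94.5, 96.2 and 97.3 CPM in siC_DMSO (log2 fold change -0.13 ± 0.20, adjusted p = 0.66, not called), so its groups overlapped. In XMU-MP1 edgeR with TMM called no H/ACA member with the knockdown, while DKC1 was called on total counts and by limma on both FPKM scales (lowest adjusted p 0.017). Their TMM-scaled log2 fold changes lay between -0.34 for DKC1 and 0.02 for NOP10. NOP10 had 89.7, 111 and 60.3 CPM in siYT_XMU and 99.6, 81.0 and 76.6 CPM in siC_XMU, and NHP2 had 284, 332 and 117 CPM in siYT_XMU and 279.6, 249 and 209 CPM in siC_XMU. In both, siYT_XMU c was the lowest of its group.

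**Figure D3:**
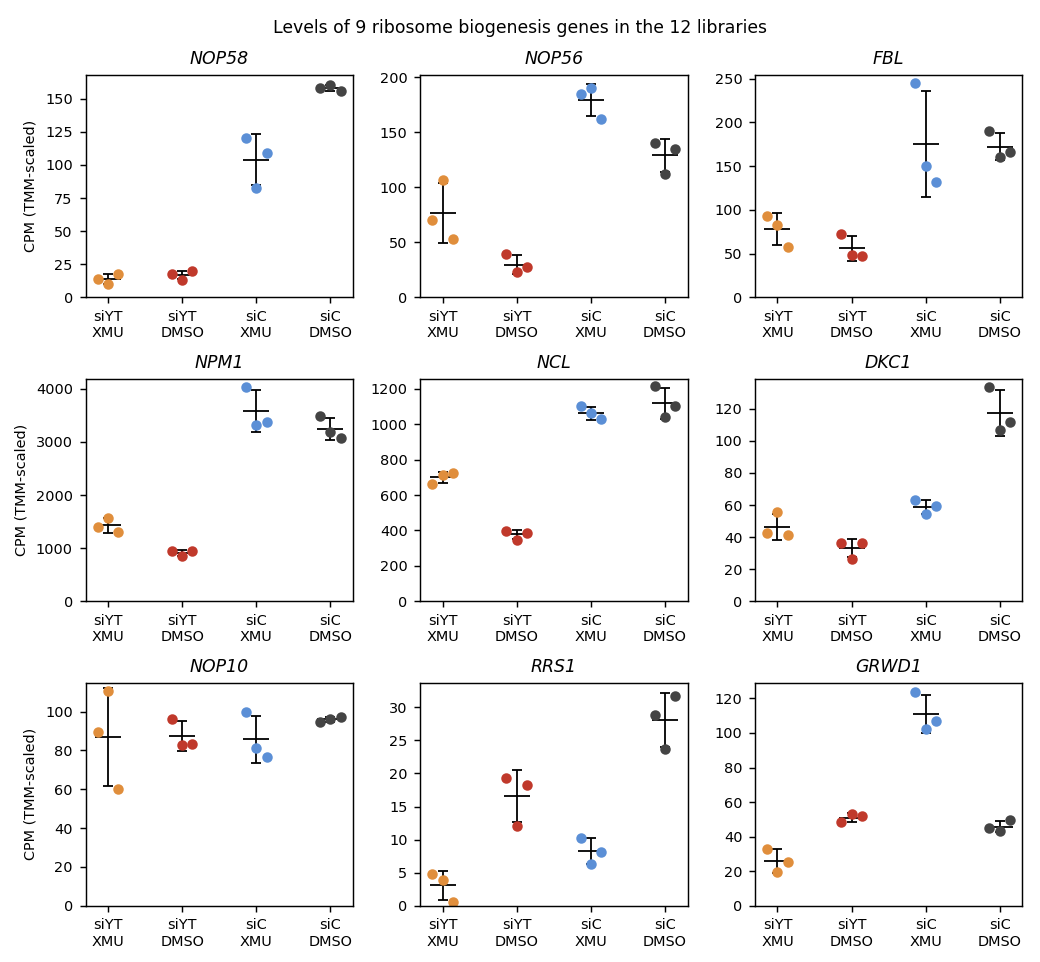
Level in CPM (vertical axes, from 0) of 9 members in the 12 libraries. Points are libraries, horizontal lines are means and bars are the SD of 3 libraries, for siYT_XMU, siYT_DMSO, siC_XMU and siC_DMSO from left to right. NOP58 lies below 20 CPM in the 6 siYT libraries and above 82 CPM in the 6 siC libraries, NOP10 overlaps between all groups, and GRWD1 is highest in siC_XMU.

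RNA polymerase I makes the ribosomal RNA precursor, and the 3 subunits in the set were lower after the knockdown in DMSO. POLR1B, its second-largest subunit, had 30.6, 16.6 and 21.7 CPM in siYT_DMSO and 74.6, 63.6 and 69.3 CPM in siC_DMSO (log2 fold change -1.59 ± 0.33, adjusted p = 0.0028). POLR1C, a subunit shared with RNA polymerase III, had 19.7, 21.1 and 19.5 CPM in siYT_DMSO and 40.1, 35.1 and 31.4 CPM in siC_DMSO (log2 fold change -0.82 ± 0.22, adjusted p = 0.014). The largest subunit, POLR1A, had 69.5, 45.5 and 46.5 CPM in siYT_DMSO and 88.4, 79.0 and 90.0 CPM in siC_DMSO (log2 fold change -0.67 ± 0.22, adjusted p = 0.033), with siYT_DMSO a nearest to the controls. In XMU-MP1 the fall was called for POLR1B, at 18.1, 10.0 and 6.22 CPM in siYT_XMU and 42.7, 35.9 and 43.1 CPM in siC_XMU (log2 fold change -1.79 ± 0.33, adjusted p = 0.0014), and not for the others. POLR1A had 58.7, 47.4 and 81.0 CPM in siYT_XMU and 54.2, 59.8 and 64.4 CPM in siC_XMU, and POLR1C had 42.8, 29.3 and 22.8 CPM in siYT_XMU and 31.8, 29.2 and 26.3 CPM in siC_XMU. Both overlapped between the groups. The DMSO call of POLR1A held in 15 of 23 alternative settings, and was lost without siYT_DMSO b or c, siC_XMU a or any siC_DMSO library. That of POLR1C was lost without siC_DMSO a.

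The SSU processome assembles on the emerging precursor of the small subunit. Of its 12 members, 10 were lower in siYT_DMSO than in siC_DMSO, and 5 were lower in siYT_XMU than in siC_XMU (UTP14A, UTP15, UTP20, WDR43 and WDR75). UTP20, a large scaffold protein, had 10.8, 6.77 and 8.69 CPM in siYT_DMSO and 44.7, 32.4 and 36.0 CPM in siC_DMSO (log2 fold change -2.11 ± 0.29, adjusted p = 0.00021). WDR43, a subunit of the complex that binds the precursor first, had 28.4, 20.8 and 28.8 CPM in siYT_DMSO and 96.6, 69.9 and 69.1 CPM in siC_DMSO (log2 fold change -1.59 ± 0.26, adjusted p = 0.00069). Both hold an E-box core near the start in the stretches above. The WDR43 fall in XMU-MP1 was of the same size, at 17.5, 8.53 and 12.4 CPM in siYT_XMU and 43.4, 33.4 and 39.8 CPM in siC_XMU (log2 fold change -1.60 ± 0.27, adjusted p = 0.00072). By mean FPKM over the 12 libraries the most abundant of them were RRP9 and IMP4, both bound to the U3 snoRNP. In siC_DMSO alone NOP14, at 27.8 ± 5.56 FPKM, and IMP4, at 27.6 ± 2.02 FPKM (SD, n = 3), did not differ beyond their spread. RRP9 had 27.9, 14.6 and 25.0 CPM in siYT_DMSO and 66.3, 45.4 and 53.6 CPM in siC_DMSO (log2 fold change -1.29 ± 0.29, adjusted p = 0.0047). In XMU-MP1 RRP9 had 25.8, 30.5 and 21.8 CPM in siYT_XMU and 40.5, 25.6 and 23.2 CPM in siC_XMU, and the groups overlapped (log2 fold change -0.19 ± 0.29, adjusted p = 0.64, not called). IMP4 had 59.6, 60.3 and 59.3 CPM in siYT_DMSO and 109, 95.5 and 103 CPM in siC_DMSO (log2 fold change -0.78 ± 0.22, adjusted p = 0.018), a call lost when any siYT_DMSO library or siC_DMSO a was left out. In XMU-MP1 IMP4 had 68.8, 106 and 54.3 CPM in siYT_XMU and 87.7, 84.4 and 61.8 CPM in siC_XMU (log2 fold change -0.03 ± 0.22, adjusted p = 0.94, not called).

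Log2 fold changes of the other called processome genes in DMSO were -1.18 for HEATR1, -1.04 for WDR75, -0.93 for UTP15, -0.90 for UTP14A, -0.82 for NOP14 and -0.78 for the helicase DDX10. The members that were not called there were UTP4 and TBL3. UTP4 varied widely within groups, at 21.7, 6.79 and 20.4 CPM in siYT_DMSO and 53.3, 52.5 and 50.7 CPM in siC_DMSO, with the groups apart (log2 fold change -1.68 ± 0.62, adjusted p = 0.056, not called). TBL3, a subunit of the UTP-B complex, had 70.5, 66.5 and 54.8 CPM in siYT_DMSO and 66.2, 59.4 and 70.0 CPM in siC_DMSO, and its groups overlapped (log2 fold change -0.03 ± 0.23, adjusted p = 0.95, not called).

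Factors of 40S maturation follow the particle into the cytoplasm, and the knockdown lowered 5 of the 6 members in DMSO and 4 of them in XMU-MP1. NOB1, the endonuclease that makes the final cut in the small-subunit RNA, had 69.2, 71.5 and 75.7 CPM in siYT_DMSO and 138, 110.3 and 103 CPM in siC_DMSO (log2 fold change -0.70 ± 0.19, adjusted p = 0.013, lost without siC_DMSO a). In XMU-MP1 it had 34.7, 40.9 and 25.7 CPM in siYT_XMU and 97.2, 83.6 and 74.2 CPM in siC_XMU (log2 fold change -1.32 ± 0.19, adjusted p = 0.00026), with no overlap in either medium. TSR1, a GTPase-like factor that keeps the pre-40S subunit from translating, had 76.9, 58.7 and 67.8 CPM in siYT_DMSO and 138, 106 and 119 CPM in siC_DMSO (log2 fold change -0.83 ± 0.16, adjusted p = 0.0015). In XMU-MP1 its groups overlapped, at 75.8, 79.7 and 70.2 CPM in siYT_XMU and 83.3, 67.3 and 74.1 CPM in siC_XMU (log2 fold change 0.01 ± 0.16, adjusted p = 0.98, not called). PNO1, the partner of NOB1, fell in both media, with log2 fold changes of -1.62 ± 0.26 in DMSO and -1.13 ± 0.26 in XMU-MP1. BYSL, which acts on early pre-40S particles, fell too, with -1.23 ± 0.21 in DMSO and -0.95 ± 0.21 in XMU-MP1, and so did LTV1, with -1.44 ± 0.39 in DMSO and -1.51 ± 0.39 in XMU-MP1. RRP12, an export factor, was not called, with 52.3, 43.7 and 35.9 CPM in siYT_DMSO and 61.5, 45.2 and 55.1 CPM in siC_DMSO (log2 fold change -0.29 ± 0.22, adjusted p = 0.35, not called).

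Of the 15 factors of 60S assembly, the knockdown lowered 9 in DMSO and 6 when XMU-MP1 was present. NOP16, a nucleolar protein of the early large-subunit particle, had 45.2, 22.5 and 34.1 CPM in siYT_DMSO and 111, 82.9 and 102 CPM in siC_DMSO (log2 fold change -1.54 ± 0.30, adjusted p = 0.0018). In XMU-MP1 its groups overlapped, at 32.9, 39.6 and 21.5 CPM in siYT_XMU and 48.8, 30.2 and 33.0 CPM in siC_XMU (log2 fold change -0.24 ± 0.29, adjusted p = 0.55, not called). PES1, BOP1 and WDR12 form the PeBoW complex, which large-subunit RNA processing needs. WDR12 had 26.3, 20.5 and 27.9 CPM in siYT_DMSO and 67.3, 55.6 and 60.5 CPM in siC_DMSO (log2 fold change -1.30 ± 0.19, adjusted p = 0.00032), and PES1 had 117, 91.7 and 102 CPM in siYT_DMSO and 191, 147 and 167 CPM in siC_DMSO (log2 fold change -0.70 ± 0.16, adjusted p = 0.0059). BOP1, the most abundant 60S member per length, had 119.6, 111 and 102 CPM in siYT_DMSO and 176, 158 and 183 CPM in siC_DMSO, with no overlap (log2 fold change -0.63 ± 0.23, adjusted p = 0.054, not called, but called by DESeq2 and voom). With the knockdown in XMU-MP1, edgeR with TMM called no PeBoW gene, while WDR12 was called on total counts and by limma on both FPKM scales (lowest adjusted p 0.012). There BOP1 had 155, 209 and 93.6 CPM in siYT_XMU and 157, 162 and 141 CPM in siC_XMU.

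URB2 had the largest 60S fall in XMU-MP1, at 5.11, 1.88 and 1.66 CPM in siYT_XMU and 14.4, 11.4 and 13.4 CPM in siC_XMU (log2 fold change -2.13 ± 0.38, adjusted p = 0.0011). In DMSO it had 11.3, 8.22 and 8.39 CPM in siYT_DMSO and 20.8, 23.9 and 26.1 CPM in siC_DMSO (log2 fold change -1.35 ± 0.36, adjusted p = 0.014, lost without siYT_DMSO b or c). NOC3L, a nucleolar complex protein, fell in both media, with log2 fold changes of -1.39 ± 0.29 in DMSO and -1.95 ± 0.30 in XMU-MP1. The RNA methyltransferase NOP2 fell in both, with -1.51 ± 0.15 in DMSO and -1.08 ± 0.15 in XMU-MP1, and so did RRP1B, with -1.48 ± 0.18 in DMSO and -1.31 ± 0.18 in XMU-MP1. The paralogue of RRP1B, RRP1, was not called in DMSO, at 79.8, 52.7 and 61.6 CPM in siYT_DMSO and 63.3, 46.8 and 57.7 CPM in siC_DMSO (log2 fold change 0.21 ± 0.31, adjusted p = 0.66, not called). Its groups overlapped while those of RRP1B did not. MRTO4 (-1.39) and DDX18 (-0.61) were called in DMSO, DDX18 not without siYT_DMSO a or b or siC_DMSO a or c. NIP7 and RRS1 were called in XMU-MP1, at -0.61 and -1.31, NIP7 not without siYT_XMU b or c or siC_XMU a or c, and RRS1 in 12 of 23 alternatives. DDX56, a helicase, was called in neither medium, nor was PPAN, whose counts share a strand with the entries PPAN-P2RY11 and P2RY11 and may be split between them. PPAN had 24.4, 7.23 and 19.6 CPM in siYT_DMSO and 56.7, 48.2 and 56.0 CPM in siC_DMSO, and in XMU-MP1 9.51, 7.52 and 0 CPM in siYT_XMU and 17.2, 21.9 and 24.6 CPM in siC_XMU. The 0 of siYT_XMU c allows up to 3 counts, or 0.364 CPM without TMM factors.

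The 7 abundant nucleolar proteins summed to a mean of 2524 of the 4380 CPM of all 50 genes in siYT_XMU, 1632 of 3385 CPM in siYT_DMSO, 5291 of 7853 CPM in siC_XMU and 5140 of 8579 CPM in siC_DMSO. Of the 5140 CPM, NPM1 gave 3249 and NCL 1117. The name does not hold for every member, as GRWD1 had rank 42 of the 50 in siC_DMSO, at 9.51 FPKM. Nucleophosmin, NPM1, a chaperone of the nucleolus, had the highest level per length of the 50 genes, at 388 ± 19.6 FPKM in siYT_DMSO and 1562 ± 109.8 FPKM in siC_DMSO (SD, n = 3 each). It had 950.2, 856 and 956 CPM in siYT_DMSO and 3484, 3178 and 3083 CPM in siC_DMSO (log2 fold change -1.82 ± 0.17, adjusted p = 1.5e-05), and 1398, 1576 and 1314 CPM in siYT_XMU and 4031, 3326 and 3372 CPM in siC_XMU (log2 fold change -1.32 ± 0.17, adjusted p = 0.00012). Nucleolin, NCL, an RNA-binding protein of the precursor, was next. It had 398, 347 and 388 CPM in siYT_DMSO and 1212, 1040.2 and 1099 CPM in siC_DMSO (log2 fold change -1.56 ± 0.14, adjusted p = 1.3e-05), and 664, 715 and 722 CPM in siYT_XMU and 1099, 1061 and 1026 CPM in siC_XMU (log2 fold change -0.60 ± 0.14, adjusted p = 0.0059). Both genes kept the groups apart in both media. NOLC1, a chaperone of snoRNPs, had 108, 82.9 and 98.6 CPM in siYT_DMSO and 316, 244 and 281 CPM in siC_DMSO (log2 fold change -1.54 ± 0.15, adjusted p = 2.1e-05). In XMU-MP1 NOLC1 had 159, 167 and 159 CPM in siYT_XMU and 251, 213 and 219 CPM in siC_XMU (log2 fold change -0.49 ± 0.15, adjusted p = 0.023), a call lost without siYT_XMU a, siC_XMU a or siC_XMU c. GNL3, or nucleostemin, and LYAR fell in both media. The log2 fold changes of GNL3 were -1.16 ± 0.18 in DMSO and -0.93 ± 0.18 in XMU-MP1, and those of LYAR -1.83 ± 0.22 in DMSO and -1.07 ± 0.21 in XMU-MP1. The helicase DDX21 was called in DMSO (-1.22) and not in XMU-MP1 (-0.39).

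**Figure D4:**
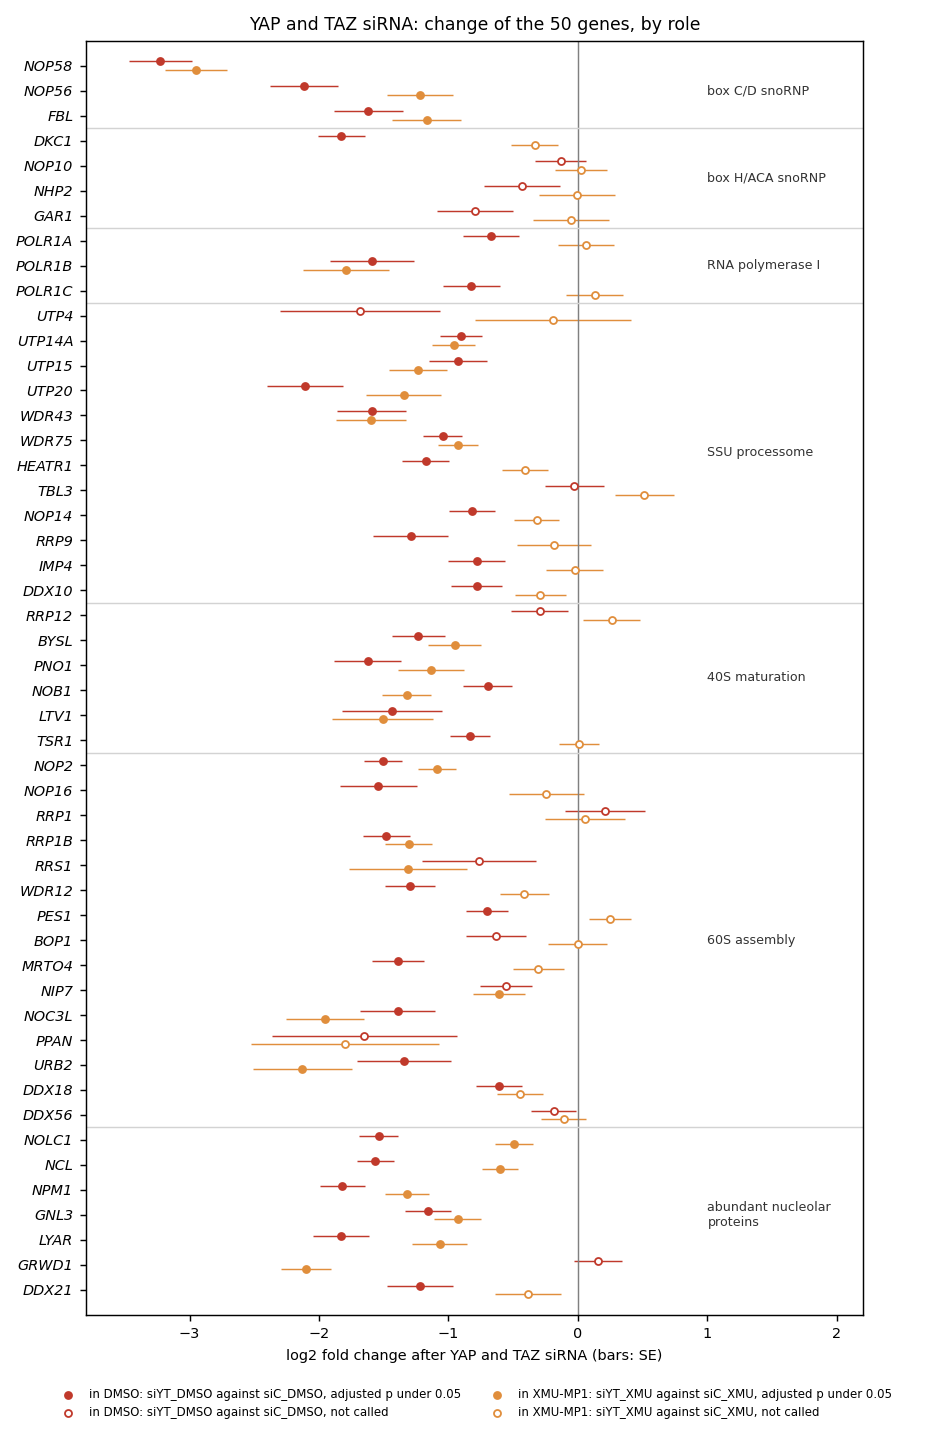
Log2 fold change of the 50 genes after siRNA against YAP and TAZ, in DMSO (red, siYT_DMSO against siC_DMSO) and in XMU-MP1 (orange, siYT_XMU against siC_XMU). Genes run down the page by role, bars are SE, filled points have an adjusted p under 0.05 and open points do not. Of the 50 genes 48 lie below 0 in DMSO and 42 in XMU-MP1, and GRWD1, NIP7 and RRS1 are called in XMU-MP1 alone.

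The calls in the 2 media, which share no library, overlapped. Of the 37 genes called lower in DMSO, 22 or 59.5% were also called lower in XMU-MP1, and these were 88% of the 25 called there. The other 3 were GRWD1, NIP7 and RRS1. As 37 of all 50 genes were called lower in DMSO, a large part of any 25 of the 50 would be among them. The overlap of calls over all genes tested was not counted. Across the 50 genes the log2 fold changes of the 2 comparisons had a Pearson correlation of 0.57, as a description over genes that share libraries and are not independent. Of the 37 calls in DMSO 30 held in each of the 23 alternative settings, and of the 25 in XMU-MP1 21 did. Leaving out siYT_XMU c gave 44 lower genes in DMSO and 25 in XMU-MP1.

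The inhibitor alone moved fewer members than the knockdown. In control siRNA, 10 were lower and 1 higher in siC_XMU than in siC_DMSO, where 5.26% of all genes were called lower and 4.0% higher. The median log2 fold change was -0.52 against -0.02 over all genes tested, and 44 of the 50 fold changes were negative. Every siC_XMU library lay below every siC_DMSO library for 35 members, against 22.1% of genes tested, and above for 3, against 18.6%. The summed level of the 50 genes overlapped between the groups, with a siC_XMU mean 0.915 of the siC_DMSO mean. NPM1 and NCL, the most abundant members, were not called, with log2 fold changes of 0.14 and -0.07.

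The largest fall with XMU-MP1 in control siRNA was that of RRS1, a factor that brings the 5S particle into the large subunit. It had 10.2, 6.33 and 8.16 CPM in siC_XMU and 28.9, 23.7 and 31.7 CPM in siC_DMSO (log2 fold change -1.77 ± 0.45, adjusted p = 0.031). NOP16 had 48.8, 30.2 and 33.0 CPM in siC_XMU and 111, 82.9 and 102 CPM in siC_DMSO (log2 fold change -1.40 ± 0.29, adjusted p = 0.013). GAR1 had 11.0, 7.04 and 10.3 CPM in siC_XMU and 26.7, 23.2 and 21.1 CPM in siC_DMSO (log2 fold change -1.32 ± 0.30, adjusted p = 0.018). The siC_XMU libraries of these genes all lay below the siC_DMSO libraries. DKC1, the enzyme of the same particle as GAR1, had 63.0, 54.2 and 59.5 CPM in siC_XMU and 133, 107 and 112 CPM in siC_DMSO (log2 fold change -0.99 ± 0.18, adjusted p = 0.0064). The other genes called lower were UTP20 (-1.06), WDR43 (-1.01), HEATR1 (-0.77), TSR1 (-0.69), WDR12 (-0.67) and PES1 (-0.81). By edgeR on all 12 libraries no box C/D protein and no RNA polymerase I subunit was called. The fit of the compared groups alone called NOP56, NOP58, POLR1A and POLR1B, voom called NOP58 and POLR1B, and the replicate block NOP58. NOP56 had 185, 190.0 and 162 CPM in siC_XMU and 140.5, 112 and 135 CPM in siC_DMSO (log2 fold change 0.47 ± 0.25, adjusted p = 0.29, not called). The count of 10 rested on single libraries. It was 1, DKC1, without siC_XMU b, without siC_XMU c or without siC_DMSO a, 4 without siC_DMSO b or c, and 18 without siYT_XMU c. The calls over all genes moved with it, from 369 lower without siC_XMU b to 1527 lower without siYT_XMU c, against 955 with every library. RRS1, HEATR1, UTP20 and WDR43 also lost their call without siC_XMU a.

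After the knockdown XMU-MP1 moved members both ways. Of the 50, 7 were lower and 4 higher in siYT_XMU than in siYT_DMSO, where 7.92% of all genes were called lower and 4.19% higher. The median log2 fold change was -0.03 against 0.02 over all genes. Scaled by total counts alone, which moved the median of all genes to -0.33, the median of the members was -0.37. Every siYT_XMU library lay below every siYT_DMSO library for 10 members, against 16.7% of genes tested, and above for 7, against 10.5%. RRS1 had 4.75, 3.83 and 0.622 CPM in siYT_XMU and 19.4, 12.1 and 18.2 CPM in siYT_DMSO (log2 fold change -2.32 ± 0.47, adjusted p = 0.0079), and URB2 had 5.11, 1.88 and 1.66 CPM in siYT_XMU and 11.3, 8.22 and 8.39 CPM in siYT_DMSO (log2 fold change -1.63 ± 0.38, adjusted p = 0.016). NOB1 had 34.7, 40.9 and 25.7 CPM in siYT_XMU and 69.2, 71.5 and 75.7 CPM in siYT_DMSO (log2 fold change -1.09 ± 0.19, adjusted p = 0.0037), and was the 1 member called in each of the 23 alternatives. The other genes called lower were NOC3L (-1.05), WDR43 (-1.02), UTP15 (-0.83) and GRWD1 (-0.98). NOC3L was called in 11 and UTP15 in 12 of the 23, both lost without siYT_DMSO b or c, siYT_XMU b or c, siC_XMU c or any siC_DMSO library, and WDR43 was not called without siYT_DMSO a or c or siYT_XMU b. RRS1 and WDR43 were called lower with XMU-MP1 in both siRNA arms, 20% of the 10 genes called lower in control siRNA and 28.6% of the 7 called lower after the knockdown. These 10 and 7 are each out of all 50 genes, and the overlap over all genes tested was not counted.

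The 4 genes that rose with XMU-MP1 after the knockdown were NOP56, NCL, NOLC1 and NPM1. NOP56 had 69.9, 107 and 53.0 CPM in siYT_XMU and 39.4, 22.8 and 27.1 CPM in siYT_DMSO (log2 fold change 1.37 ± 0.26, adjusted p = 0.0058). NCL had 664, 715 and 722 CPM in siYT_XMU and 398, 347 and 388 CPM in siYT_DMSO (log2 fold change 0.89 ± 0.14, adjusted p = 0.0023). NOLC1 had 159, 167 and 159 CPM in siYT_XMU and 108, 82.9 and 98.6 CPM in siYT_DMSO (log2 fold change 0.75 ± 0.15, adjusted p = 0.0081). NPM1 had 1398, 1576 and 1314 CPM in siYT_XMU and 950.2, 856 and 956 CPM in siYT_DMSO (log2 fold change 0.63 ± 0.17, adjusted p = 0.030). The siYT_XMU libraries of all 4 lay above the siYT_DMSO libraries and below the siC_XMU libraries. None of the rises was called on FPKM, and only that of NOP56 on total counts. Without siYT_XMU c there were 8 rises, and leaving out any siYT_DMSO, siC_DMSO, siC_XMU b, siC_XMU c, siYT_XMU a or siYT_XMU b library ended the call of NPM1. The count of falls was 4 without siYT_DMSO c.

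**Figure D5:**
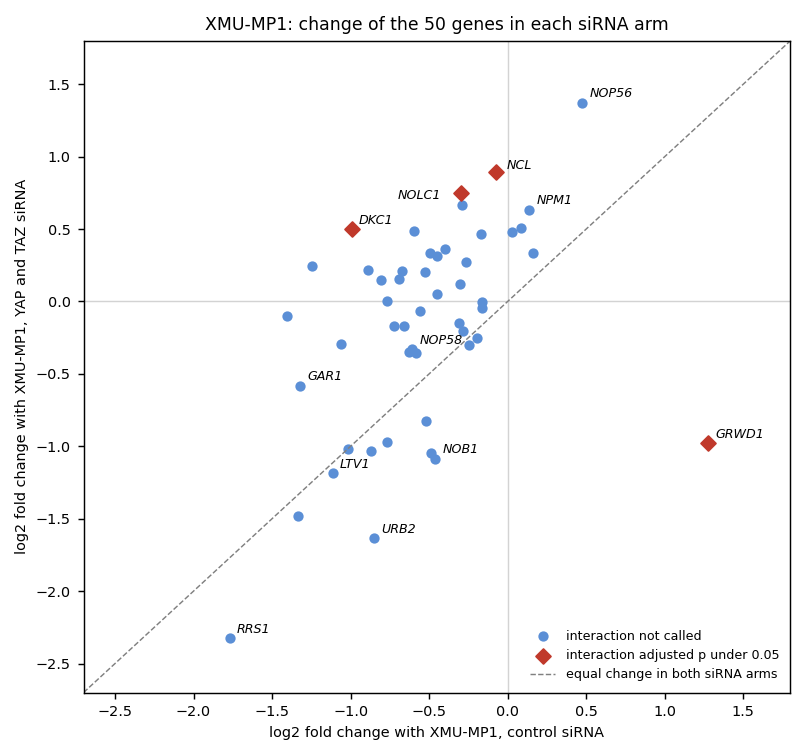
Change of the 50 genes with XMU-MP1 in control siRNA (horizontal axis, log2 fold change of siC_XMU over siC_DMSO) and after siRNA against YAP and TAZ (vertical axis, log2 fold change of siYT_XMU over siYT_DMSO). Red diamonds have an adjusted p under 0.05 for the difference between the axes, and the dashed line marks equal change. Above the line lie 37 of the 50 genes and below it 13, or 20 on total counts, and GRWD1 stands alone at the lower right.

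The difference between the siRNA arms was tested as an interaction, the XMU-MP1 change after the knockdown minus that in control siRNA. It was lower for 1 member and higher for 3, where 1.73% of all genes were called lower and 0.860% higher, and the median over the 50 genes was 0.49, against 0.07 over all genes tested. On total counts the median of the 50 was 0.22 and that of all genes -0.20, and 20 members were negative, against 13 with TMM. Without siYT_XMU c the median of the 50 was 0.54 and that of all genes 0.10, and 6 members were negative. DKC1 differed by 1.49 ± 0.25 on the log2 scale (adjusted p = 0.017), with a change of 0.50 after the knockdown and -0.99 in control siRNA. NOLC1 differed by 1.05 ± 0.21 (adjusted p = 0.029), with 0.75 after the knockdown and -0.30 in control siRNA. NCL differed by 0.96 ± 0.20 (adjusted p = 0.029), with 0.89 after the knockdown and -0.07 in control siRNA. The 3 rises were called neither on total counts nor on FPKM, and 0 were called without siC_XMU b or without siC_XMU c. There was 1 without siYT_DMSO b, siYT_DMSO c or any 1 of the siC_DMSO libraries, and 8 without siYT_XMU c. Over all genes the higher interactions numbered between 32, without siYT_DMSO b or without siC_DMSO b, and 398, without siYT_XMU c, against 156 with every library. The count of lower genes was 2 without siYT_XMU a.

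GRWD1, a WD-repeat protein whose yeast counterpart Rrb1 is a chaperone of a ribosomal protein, moved opposite to most members with XMU-MP1 in control siRNA (chromosome 19, 48445983 to 48457022). It had 33.0, 19.6 and 25.1 CPM in siYT_XMU, 48.2, 52.8 and 52.1 CPM in siYT_DMSO, 124, 103 and 107 CPM in siC_XMU and 44.9, 43.1 and 49.5 CPM in siC_DMSO. The siC_XMU libraries were thus the highest and the siYT_XMU libraries the lowest, with no overlap of these groups with any other, while siYT_DMSO and siC_DMSO lay close together (log2 fold change 0.16 ± 0.18, adjusted p = 0.57, not called). XMU-MP1 raised it in control siRNA (log2 fold change 1.28 ± 0.19, adjusted p = 0.0022) and lowered it after the knockdown (log2 fold change -0.98 ± 0.19, adjusted p = 0.0059), and the difference was -2.26 ± 0.26 (adjusted p = 0.0039). The knockdown lowered it in XMU-MP1 (log2 fold change -2.10 ± 0.19, adjusted p = 1.4e-05). The rise, the interaction and the knockdown fall were called in every alternative run, 23, 22 and 23 of them, and the fall with XMU-MP1 after the knockdown in all but the fit of the compared groups alone. KCNJ14, a potassium channel gene, overlaps GRWD1 on the same strand, and its own counts were 6.49, 2.15 and 6.01 CPM in siYT_XMU, 0.917, 0.735 and 1.56 CPM in siYT_DMSO, 16.2, 6.31 and 6.34 CPM in siC_XMU and 0.260, 0.625 and 0.689 CPM in siC_DMSO. Its part in the GRWD1 values was not tested.

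Per length, the levels in siC_DMSO covered a wide range. After NPM1 came NCL at 317 ± 26.8 FPKM, NHP2 at 301 ± 13.5 FPKM, NOP10 at 210.4 ± 2.29 FPKM, FBL at 168 ± 16.4 FPKM and NOP58 at 88.3 ± 1.32 FPKM (SD, n = 3). Of these neighbours NCL and NHP2 did not differ beyond their spread. The lowest were UTP20 at 4.64 ± 0.811 FPKM and URB2 at 4.63 ± 0.507 FPKM. The median member stood at 7.81 FPKM in siYT_XMU, 10.1 FPKM in siYT_DMSO, 17.3 FPKM in siC_XMU and 26.0 FPKM in siC_DMSO.

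Some members share features that the choice by name did not use. In the GENCODE annotation (release 29), 8 of the 50 genes hold snoRNA genes on their own strand, or 16%, against 1.5% of 13271 tested protein-coding genes. They are NOP58, NOP56, DKC1, WDR43, TSR1, PPAN, NCL and GNL3, with 27 snoRNA genes in all, and where an intron is shared the counts of host and snoRNA may not be told apart. Their median log2 fold change with the knockdown in DMSO was -1.62, against -0.99 for the other 42 genes. The 20 genes with an E-box core in the window had a median of -1.34 and 17 falls, and the 22 genes with a window and no core a median of -0.88 and 15 falls. In XMU-MP1 these medians were -0.94 with and -0.41 without the core, with 11 and 9 falls, and for XMU-MP1 in control siRNA they were -0.59 and -0.49. These splits were not tested.

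The wider pathway was read from 119 tested genes of 4 lists that hold none of the 50. With the knockdown in DMSO 58 of them were called lower and 5 higher, with a median log2 fold change of -0.61, and in XMU-MP1 53 were called lower and 5 higher, with a median of -0.56. Of all genes tested 16.0% were called lower and 16.1% higher in DMSO, and 18.6% and 17.7% in XMU-MP1. Among the polymerase I factors TCOF1, or treacle, which recruits the transcription machinery to ribosomal DNA, had 43.0, 29.5 and 46.2 CPM in siYT_DMSO and 297, 263 and 305 CPM in siC_DMSO (log2 fold change -2.87 ± 0.27, adjusted p = 1.5e-05), and POLR1E (-1.89) and POLR1G (-2.25), subunits of the polymerase, fell too. Among small-subunit factors WDR3 (-1.49), the RNA acetyltransferase NAT10 (-1.20) and RCL1 (-1.41) had the smallest adjusted p. Among large-subunit factors these were PELP1 (-1.93), RRP15 (-1.81) and NLE1 (-2.38). Of the genes of snoRNP assembly and the RNA exosome, which trims precursors, they were EXOSC2 (-2.04), SHQ1 (-1.71), the assembly factor of DKC1, and EXOSC9 (-1.88). The called rises in DMSO were TAF1C, UTP3, LSG1, ZNF622 and PIH1D1. XMU-MP1 lowered 18 and raised 0 of the 119 genes in control siRNA (3 higher at an unadjusted p under 0.05, 1 by DESeq2), led by NOL10 (-1.37) and UTP25 (-1.36), and lowered 11 and raised 2 after the knockdown, led by MTREX (-1.15) and UBTF (-1.32). The shares over all genes tested were 5.26% lower and 4.0% higher in control siRNA, and 7.92% and 4.19% after the knockdown. The 11 falls after the knockdown were thus near the share over all genes, and the 2 rises below it. The interaction was called for WDR3 (1.37), WDR74 (1.86) and CCDC86 (1.53), all higher, and for 0 lower genes (10 at an unadjusted p under 0.05, 3 by DESeq2). Over all genes tested it was called higher for 0.860% and lower for 1.73%.

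Ribosomal protein genes, the products that these factors assemble, seldom passed the test. Of 79 tested, 2 were called lower with the knockdown in DMSO, RPLP0 (-0.98) and RPL3 (-0.75), and 0 higher, also at an unadjusted p and by DESeq2, with a median log2 fold change of -0.04. Over all genes tested 16.0% were called lower and 16.1% higher with the knockdown in DMSO, and 18.6% and 17.7% in XMU-MP1. In XMU-MP1 2 were called lower, RPLP0 (-0.99) and RPS9, and 0 higher, with a median of 0.14. There 2 were higher at an unadjusted p under 0.05, 4 by DESeq2 and 2 by voom. RPS9 was at most 2.33 CPM in any library, too low for its fold to be read. RPLP0 had 1429.8, 1395 and 1376 CPM in siYT_DMSO and 2691, 2892 and 2716 CPM in siC_DMSO, and the groups did not overlap. XMU-MP1 gave 0 calls among the 79 in either siRNA arm, with medians of 0.37 after the knockdown and 0.19 in control siRNA, or 0.06 and 0.11 on total counts. The medians of all genes were 0.02 and -0.02 with TMM, and moved down as well on total counts, to -0.33 and -0.10. With TMM, 78 of the 79 fold changes were positive after the knockdown and 79 in control siRNA. At an unadjusted p 6 genes were higher after the knockdown and 1 in control siRNA, and DESeq2 called 5 and 0. On total counts the median of the ribosomal proteins was -0.23 for the knockdown in DMSO and -0.26 when XMU-MP1 was present, where that of all genes moved to -0.15 and -0.41.

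MYC was lower with the knockdown and with XMU-MP1. It had 12.7, 12.4 and 17.8 CPM in siYT_XMU, 129.8, 95.1 and 109 CPM in siYT_DMSO, 57.1, 70.5 and 74.7 CPM in siC_XMU and 321, 278 and 268 CPM in siC_DMSO, with no overlap between any pair of groups. The knockdown lowered it with DMSO (log2 fold change -1.38 ± 0.19, adjusted p = 0.00016) as well as with XMU-MP1 (log2 fold change -2.26 ± 0.19, adjusted p = 9.5e-06). The inhibitor lowered it in control siRNA (log2 fold change -2.10 ± 0.19, adjusted p = 0.00022) and after the knockdown (log2 fold change -2.98 ± 0.20, adjusted p = 2.1e-05). Among these 4 groups MYC was lowest in siYT_XMU, whereas the summed level of the 50 genes was lowest in siYT_DMSO on the TMM scale. NPM1 and NCL weigh most in this sum. The mean of NPM1 was 1429 CPM in siYT_XMU and 921 CPM in siYT_DMSO, and that of NCL 700 and 378 CPM. Gene by gene, 26 of the 50 fold changes of siYT_XMU over siYT_DMSO were negative and 24 positive, with a median log2 fold change of -0.03. As a share of all counts the 50 genes took 0.411%, 0.415% and 0.222% in siYT_XMU and 0.348%, 0.33% and 0.354% in siYT_DMSO, so siYT_XMU c is the lowest there. In that library ribosomal RNA genes took 35.0% and SLCO5A1 12.6% of all counts, which lowers the share left for every other gene. MXD1, a MYC antagonist that pairs with MAX, had 98.1, 115 and 92.6 CPM in siYT_XMU, 111, 111 and 67.1 CPM in siYT_DMSO, 40.4, 58.5 and 26.1 CPM in siC_XMU and 11.6, 16.3 and 10.5 CPM in siC_DMSO, and it rose with the knockdown in DMSO (log2 fold change 2.91 ± 0.31, adjusted p = 3.6e-05). MNT, another antagonist, rose with the knockdown in both media (1.10 in DMSO and 1.50 in XMU-MP1) and fell with XMU-MP1 in both siRNA arms (-1.34 in control siRNA and -0.95 after the knockdown). Of the 10 network genes tested, 1 was called lower and 3 higher with the knockdown in DMSO, and 1 lower and 2 higher in XMU-MP1. The shares over all genes tested were 16.0% lower and 16.1% higher in DMSO, and 18.6% and 17.7% in XMU-MP1.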

How the data were processed

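Polyadenylated RNA of 12 MCF10A libraries was sequenced as stranded pairs, per the labels. The submitters' processing notes name cutadapt, FastQC, HISAT2, StringTie, edgeR and GRCh38.p13, and roles and versions are not given in the sources used here. The deposited table holds whole-number counts per gene and FPKM (fragments scaled to transcript length and library depth) for 46931 entries, per the file headers, and the authors wrote 1e-04 FPKM where a count is 0. The main test was that of edgeR 4.0.16 (R 4.3.3), keeping 18143 genes by filterByExpr, all 50 members included, with TMM scaling (factors 0.586 to 1.17) and 4 group means fitted to all 12 libraries (quasi-likelihood F test, two-sided, 8 residual degrees of freedom, common dispersion 0.232). A gene is called at a Benjamini-Hochberg adjusted p under 0.05 over the genes tested. The SE is the size of the log2 fold change over the square root of F. No spike-in was used, and TMM takes most genes as unchanged.

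Full values are given for the 2 members per role with the highest FPKM, for the 3 largest called falls and rises of each comparison, for called interactions and for up to 3 genes of each other list, MYC, YAP1 and WWTR1. Others were named as space allowed. The members and lists were chosen with earlier results of these data known. The limits for 0 counts cover counting error only. Of the members 11 overlap another entry on their strand and 16 one on the other strand, and 27 overlap neither. No batch is labelled. The alternatives were RLE or total-count scaling, no filter or at least 1 CPM in 3 libraries, DESeq2 1.42.0, limma 3.58.1 (voom, and log2 of FPKM + 1 or + 0.1), the compared groups alone, a replicate block, each library left out and, chosen after seeing the data, the removal of ribosomal RNA genes and SLCO5A1.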

Additional observations from a re-analysis of the deposited data

Results flagged for a closer look

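In 4 of the 50 genes the change with XMU-MP1 differed between the siRNA arms by the interaction test (edgeR, adjusted p under 0.05). The difference was -2.26 for GRWD1, 1.49 for DKC1, 1.05 for NOLC1 and 0.96 for NCL on the log2 scale, the change after the knockdown minus that in control siRNA. GRWD1 was called in all 22 alternatives run, DKC1 in 17, NOLC1 in 12 and NCL in 10.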

How the results depend on the processing

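No called member changed the sign of its fold change under any alternative run. On total counts XMU-MP1 lowered 3 members in control siRNA and raised 1 after the knockdown, with 0 higher interactions. RLE scaling gave 1 member higher with the knockdown in XMU-MP1 and 5 higher interactions, the stricter filter 1 and 6, DESeq2 1 and 11, and voom 1 and 9. XMU-MP1 lowered 19 members in control siRNA by DESeq2 and 25 by voom. On log2(FPKM + 1) XMU-MP1 lowered 11 and raised 0 after the knockdown, with 0 higher interactions, and on log2(FPKM + 0.1) it was 11, 0 and 0, with 3 lowered in control siRNA. Fitted to the compared groups alone, XMU-MP1 lowered 24 and raised 2 in control siRNA and lowered 1 and raised 2 after the knockdown. The letters are not stated to pair the libraries and were not taken as pairs in the main test. Of 18 residual correlations between libraries of the same letter 2 exceeded 0.1 (range -0.02 to 0.17). For 11 of 12 libraries, however, the mean correlation with libraries of the other groups was highest for the library's own letter. The replicate block gave 5 higher interactions. The cause of these shifts was not tested. Leaving out 1 library at a time gave ranges of 32 to 44 lower members with the knockdown in DMSO, 22 to 25 lower and 0 to 1 higher in XMU-MP1, 1 to 18 lower with XMU-MP1 in control siRNA, 4 to 9 lower and 3 to 8 higher after the knockdown, and 1 to 2 lower and 0 to 8 higher interactions. Over all genes, the counts below moved by more than 1.5 times against those with edgeR and TMM. For XMU-MP1 in control siRNA (955 lower, 725 higher) they were 1774 lower and 1315 higher by DESeq2, 1907 and 1407 by voom, 2101 and 1943 in the compared groups, and 288 higher on total counts, 436 on log2(FPKM + 1) and 314 on log2(FPKM + 0.1). For XMU-MP1 after the knockdown (1437 and 761) they were 544 lower and 322 higher in the compared groups, 1733 higher by DESeq2, 416 higher on total counts, and 2794 lower on log2(FPKM + 1) and 2661 on log2(FPKM + 0.1). For the interaction (314 and 156) they were 942 lower and 886 higher by DESeq2, 714 and 422 by voom, and 54 higher on total counts and 252 on log2(FPKM + 1). For the knockdown in XMU-MP1 (3381 and 3219) they were 1898 higher on total counts, 5441 lower and 1666 higher on log2(FPKM + 1), and 5387 and 1717 on log2(FPKM + 0.1). For the knockdown in DMSO (2897 and 2929) they were 1909 higher on total counts and 1918 on log2(FPKM + 0.1). Total counts gave 649 lower for XMU-MP1 in control siRNA, 2135 lower for it after the knockdown and 211 lower interactions. Counts without 1 library that moved as far lie within 369 to 1527 lower and 260 to 1134 higher in control siRNA, 787 to 1608 and 372 to 1277 after the knockdown, and 54 to 608 and 32 to 398 for the interaction. Scaling by total counts moved the median of all genes to -0.15, -0.41, -0.10, -0.33 and -0.20 in the 5 comparisons. The depth of siYT_XMU c, 8243351 counts, limits members at few CPM there.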
